A study of Homo sapiens with 12 samples.

Results

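The UGT2B genes encode UDP-glucuronosyltransferases, enzymes of the endoplasmic reticulum that join glucuronic acid to steroids, bile acids and drugs. The 7 symbols UGT2B4, UGT2B7, UGT2B10, UGT2B11, UGT2B15, UGT2B17 and UGT2B28 were taken by name from a table of 56269 gene symbols, and all 7 were present. RNA was sequenced, with a stranded TruSeq mRNA kit, from C4-2, an LNCaP-derived human prostate cancer line that models castration-resistant disease. Every culture was transfected for 48 h with small interfering RNA (siRNA), kept without serum for 12 h and treated for 24 h. The 4 groups were nonspecific siRNA with ethanol vehicle, nonspecific siRNA with 2.5 nM dihydrotestosterone (DHT), siRNA against paxillin with vehicle, and siRNA against paxillin with DHT. Each group had 3 libraries of 1 cell line. Whether the 3 came from separate cultures is not stated in the labels, and a p-value here reflects only how far these libraries spread, in part perhaps for technical reasons.

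Glucuronidation makes androgens water-soluble and is the main irreversible step that removes them from prostate cells. UGT2B15 and UGT2B17 are the enzymes best known for this in prostate, where between them they act on DHT and its metabolites androstanediol and androsterone. Their transcripts are known to be lowered by androgen in LNCaP cells. UGT2B28 also conjugates androgens, UGT2B7 has broad activity on steroids and opioids, UGT2B4 acts on bile acids, and UGT2B10 on tobacco alkaloids. Little is established about the substrates of UGT2B11.

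The 7 genes lie within 989 kb of chromosome 4 (GRCh38, GENCODE 29), in the order UGT2B17, UGT2B15, UGT2B10, UGT2B7, UGT2B11, UGT2B28 and UGT2B4. UGT2B17 spans chr4:68537184-68568527 and UGT2B15 chr4:68646630-68670628, both on the minus strand. UGT2B11 spans chr4:69199951-69214731 on the minus strand and UGT2B28 chr4:69280499-69295050 on the plus strand. UGT2B10 lies at chr4:68815993-68831196 and UGT2B7 at chr4:69051363-69112987, both on the plus strand, and UGT2B4 at chr4:69480165-69526014 on the minus strand. All are annotated as protein-coding, with coding regions of 1587 to 1593 bases.

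The coding sequences are close enough that some reads fit more than 1 gene. UGT2B15 and UGT2B17 were 96.5% identical, with an unbroken identical run of 199 bases, and UGT2B11 and UGT2B28 were 97.0% identical. UGT2B15 and UGT2B28, at 84.1%, were the least alike of the 21 pairs. The first 90 coding bases of the 4 genes with enough counts to test, from GENCODE 29, show these 2 pairs; capitals mark bases that differ from UGT2B15.
UGT2B15: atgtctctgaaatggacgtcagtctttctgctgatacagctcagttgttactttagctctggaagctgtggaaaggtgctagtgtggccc
UGT2B17: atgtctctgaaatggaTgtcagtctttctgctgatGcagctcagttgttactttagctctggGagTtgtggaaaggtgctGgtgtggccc
UGT2B11: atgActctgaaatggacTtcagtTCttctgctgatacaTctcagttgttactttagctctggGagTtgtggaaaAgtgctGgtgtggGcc
UGT2B28: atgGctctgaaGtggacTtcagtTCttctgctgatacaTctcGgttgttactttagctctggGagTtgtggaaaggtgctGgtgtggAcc
UGT2B17 differed from UGT2B15 at 5 of these 90 bases, UGT2B11 at 10 and UGT2B28 at 11. Of all 75-base windows of the transcript, 18.4% of UGT2B15 occurred unchanged in UGT2B17, and as much of UGT2B17 in UGT2B15, while neither shared such a window with any other UGT2 gene. The shared part was 18.5% for UGT2B11, 17.2% for UGT2B10 and 15.2% for UGT2B28, mostly with one another and with the pseudogenes UGT2B24P, UGT2B25P and UGT2B27P. It was 2.3% for UGT2B7 and 0.0% for UGT2B4. How reads that fit several genes were counted is not stated in the notes, so counts of each close pair are uncertain in how they divide between its members, and sums are given beside them.

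**Figure D1:**
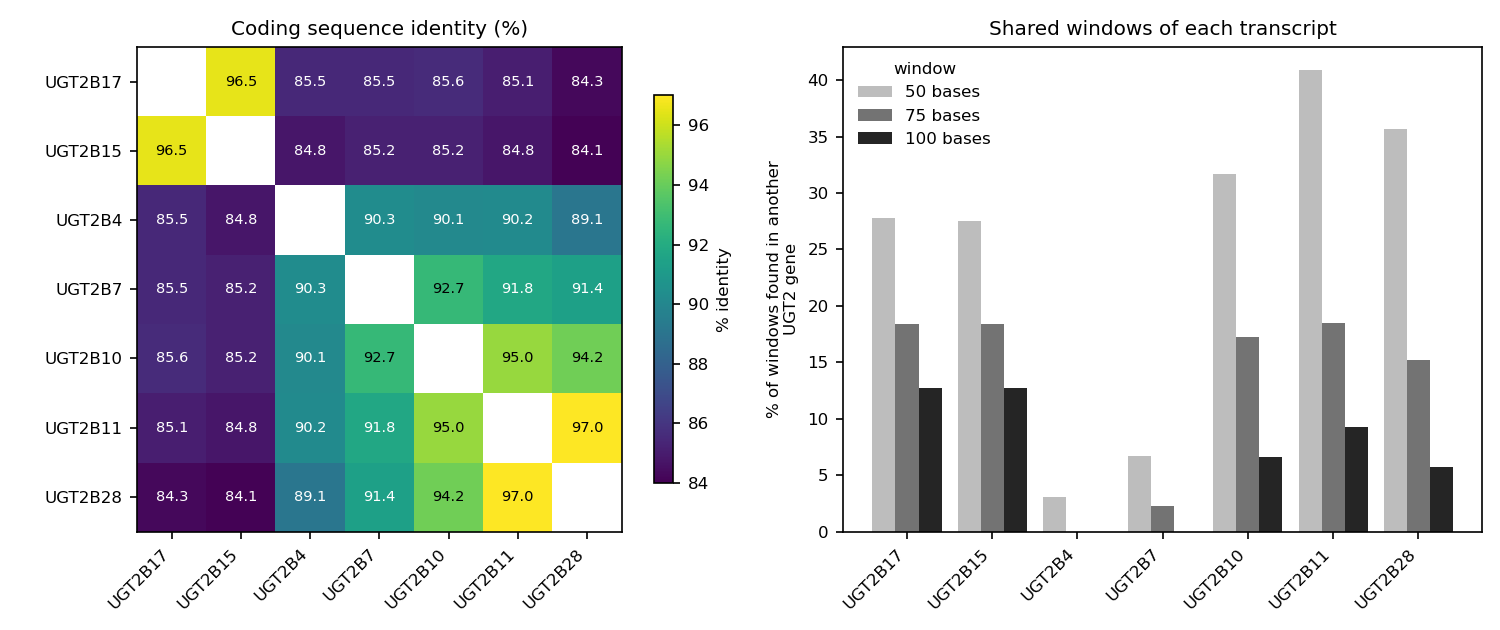
Left, percent identity of the coding sequences for each pair of the 7 UGT2B genes; right, percent of windows of 50, 75 or 100 bases of each transcript found unchanged in another UGT2 gene or pseudogene. UGT2B15 and UGT2B17 form 1 close pair at 96.5%, UGT2B10, UGT2B11 and UGT2B28 a second close group at 94.2 to 97.0%, and UGT2B4 and UGT2B7 share few windows.

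RefSeq promoters (GRCh38.p14) were matched for UGT2B15, UGT2B10, UGT2B7 and UGT2B11, with no entry for UGT2B17, UGT2B28 and UGT2B4. The stretch from 200 to 81 bases before the start is printed for these 4 because UGT2B15 fell with DHT and UGT2B11 did not pass the test; capitals mark motif matches.
UGT2B15, chr4:68670733-68670852, minus strand: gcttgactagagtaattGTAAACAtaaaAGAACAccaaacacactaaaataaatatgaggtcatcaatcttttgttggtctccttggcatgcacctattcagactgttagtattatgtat
UGT2B10, chr4:68815794-68815913, plus strand: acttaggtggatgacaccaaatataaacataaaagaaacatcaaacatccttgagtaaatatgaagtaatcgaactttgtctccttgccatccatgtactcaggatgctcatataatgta
UGT2B7, chr4:69096274-69096393, plus strand: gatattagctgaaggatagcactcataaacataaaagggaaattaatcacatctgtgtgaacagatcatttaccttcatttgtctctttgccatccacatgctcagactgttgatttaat
UGT2B11, chr4:69214829-69214948, minus strand: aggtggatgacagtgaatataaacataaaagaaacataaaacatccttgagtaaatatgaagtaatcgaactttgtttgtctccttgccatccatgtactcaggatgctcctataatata
Motifs were sought in the 300-base promoters on both strands: AGAACA, an arm of the androgen response element, and GTAAACA, the forkhead motif. A further motif, not named here, was also sought and had no match in the 4 promoters. The motifs were chosen after the sequences were seen. UGT2B15 held GTAAACA at -183 to -177 and AGAACA at -172 to -167, and neither was found in the other 3 promoters. Of 35116 promoters of the same length, 14.8% held AGAACA, 3.42% GTAAACA and 0.655% both. These matches describe letters in the reference, and binding was not measured.

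Library totals ran from 11944906 to 32040465 counts, with the shallowest in nonspecific vehicle replicate 1. Levels are given in CPM (counts scaled to library size) on totals adjusted by TMM, the trimmed mean of M-values, so that 1 count equals 0.0328 to 0.0814 CPM. PXN, the targeted gene, ranged over 121 to 151 CPM in the 6 nonspecific libraries and over 9.35 to 16.7 CPM in the 6 knockdown libraries, and all 5 androgen-induced genes used as a check rose with DHT under each siRNA. All 10 luminal prostate markers were tested, at a summed 7540 to 18200 CPM. The filter on low counts kept 16115 genes and 4 of the 7 UGT2B genes. UGT2B28 passed it through its DHT libraries and UGT2B15 through its vehicle libraries, so passing is not independent of the DHT difference.

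In vehicle, UGT2B17 and UGT2B15 made up most of the family's transcripts. Per kilobase of exon, UGT2B17 led nonspecific vehicle at 2.22 ± 0.674 CPM per kb (mean ± SD, n = 3), followed by UGT2B15 at 1.15 ± 0.434 and UGT2B11 at 0.197 ± 0.114. The ranges of UGT2B17 and UGT2B15 overlapped, and those of UGT2B15 and UGT2B11 did not. UGT2B7 at 0.0748, UGT2B4 at 0.0467, UGT2B28 at 0.0287 and UGT2B10 at 0.00668 CPM per kb were at a few counts per library. In paxillin vehicle the same 3 genes led, at 3.12 ± 0.446, 2.94 ± 1.64 and 0.509 ± 0.297 CPM per kb.

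**Figure D2:**
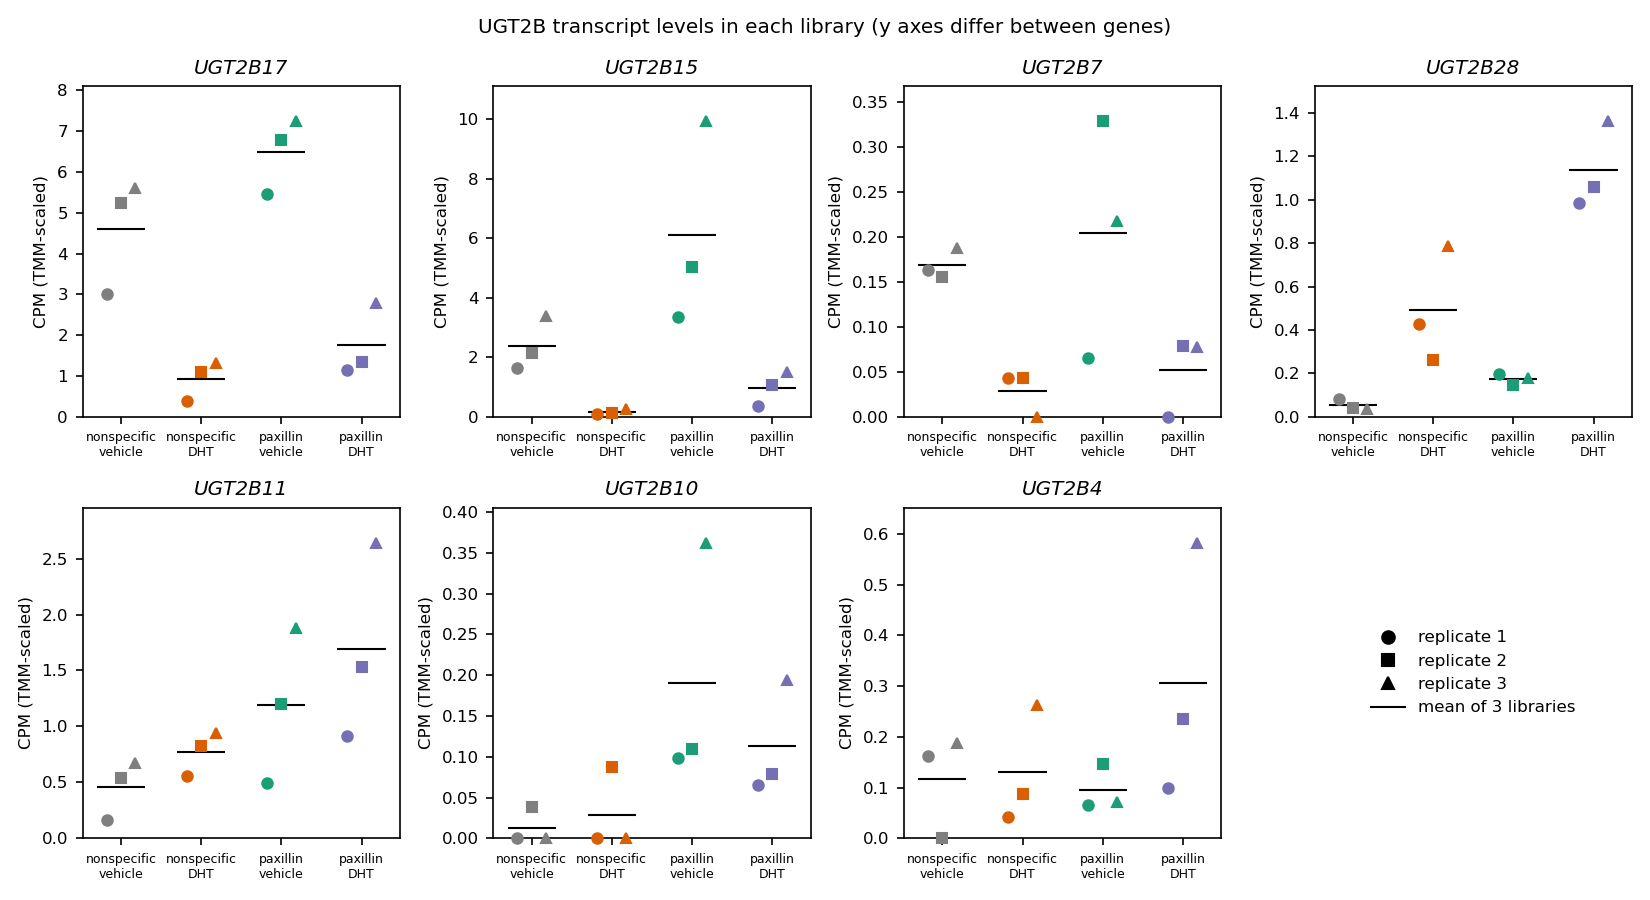
CPM on TMM-scaled totals (linear y axes from 0, different for each gene) of the 7 UGT2B genes in each of the 12 libraries, by group; marker shapes give the replicate number and lines the mean of 3 libraries. UGT2B17 and UGT2B15 are lower in every DHT library than in any vehicle library of the same siRNA, UGT2B28 is higher, and UGT2B7, UGT2B10 and UGT2B4 stay under 0.6 CPM.

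The first comparison asked how the family responds to DHT under nonspecific siRNA. UGT2B15 and UGT2B17, the androgen-inactivating pair, fell, and UGT2B28 rose, while UGT2B11 did not pass the test. Of the 4 tested genes 1 rose and 2 fell, beside 40.5% of all 16115 genes called, 21.6% up and 18.9% down (edgeR quasi-likelihood test, Benjamini-Hochberg adjusted p under 0.05). With upper-quartile scaling, 2707 of all genes were called up and 3896 down, in place of 3481 and 3053.

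UGT2B15 stood at 1.63, 2.13 and 3.38 CPM in nonspecific vehicle (20, 55 and 90 counts) and at 0.0856, 0.131 and 0.262 CPM with DHT (2, 3 and 7 counts). The lowest vehicle library was above the highest DHT library, a separation that 50.4% of all tested genes showed in 1 direction or the other. The fall was 14.7-fold, a log2 fold change of -3.88 ± 0.64 (SE) with a 95% interval of -5.22 to -2.53 and an edgeR adjusted p of 1e-04. Pairing libraries by replicate number, UGT2B15 was 19.0, 16.3 and 12.9 times lower with DHT in numbers 1, 2 and 3.

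UGT2B17, which also acts on testosterone, stood at 3.01, 5.23 and 5.60 CPM in vehicle (37, 135 and 149 counts) and at 0.385, 1.09 and 1.31 CPM with DHT (9, 25 and 35 counts). The groups did not overlap, and replicate 1 was the lowest library in each. It fell 5.05-fold, with a log2 fold change of -2.34 ± 0.35 (SE, edgeR adjusted p = 4e-05). Summed over UGT2B15 and UGT2B17, whose reads could be exchanged, the level went from 6.99 ± 2.19 to 1.09 ± 0.563 CPM, a ratio of means of 6.43. The ratio of UGT2B15 to UGT2B17 was 0.541, 0.407 and 0.604 in vehicle and 0.222, 0.12 and 0.2 with DHT, without overlap.

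UGT2B28 moved the opposite way. It had 1 count in each nonspecific vehicle library (0.0814, 0.0387 and 0.0376 CPM) and 10, 6 and 21 counts with DHT (0.428, 0.261 and 0.787 CPM). The log2 fold change was 3.30 ± 0.65 (SE, edgeR adjusted p = 0.00055), and the ratio of summed counts, scaled to depth, was 10.9 with an exact 95% counting interval of 3.46 to 55.4. Its size is loosely fixed, since the vehicle group held only 3 counts. UGT2B11 lay at 0.163, 0.542 and 0.676 CPM in vehicle and at 0.556, 0.827 and 0.937 CPM with DHT. Its groups overlapped, and its log2 fold change was 0.60 ± 0.55 (SE, edgeR adjusted p = 0.41, 95% interval -0.56 to 1.76). Within replicate numbers 1, 2 and 3 it was 3.42, 1.53 and 1.39 times higher with DHT. With the replicate number as a block it did not pass either (edgeR adjusted p = 0.1). UGT2B24P, a pseudogene that shares windows with UGT2B28, had 0 counts in the vehicle group and 4 with DHT.

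The 3 members below the filter had 0 to 15 counts in any library. UGT2B7 had 2, 4 and 5 counts in nonspecific vehicle and 1, 1 and 0 with DHT, a ratio of 0.161 (exact 95% counting interval 0.0174 to 0.738). In a fit of 34208 genes with no filter its log2 fold change was -2.41 (edgeR unadjusted p = 0.033, adjusted p = 0.14), which did not pass. UGT2B4 had 7 counts over the vehicle group and 10 with DHT, and UGT2B10 had 1 and 2, so no difference was detectable at this depth.

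Under paxillin siRNA, DHT again lowered UGT2B15 and UGT2B17 and raised UGT2B28. Of the 4 tested, again 1 rose and 2 fell, beside 38% of all genes called, 20.1% up and 17.9% down; with upper-quartile scaling those all-gene calls numbered 2262 up and 3935 down, in place of 3234 and 2886. UGT2B15 went from 3.35, 5.03 and 9.92 CPM to 0.36, 1.06 and 1.51 CPM, UGT2B17 from 5.45, 6.78 and 7.24 CPM to 1.15, 1.34 and 2.79 CPM, and UGT2B28 from 0.197, 0.146 and 0.181 CPM to 0.983, 1.06 and 1.36 CPM. In each of these 3 genes the vehicle and DHT libraries did not overlap, beside 48.6% of all tested genes.

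The falls under paxillin siRNA were 6.34-fold for UGT2B15, at a log2 fold change of -2.66 ± 0.42 (SE, edgeR adjusted p = 6.2e-05), and 3.72-fold for UGT2B17, at -1.89 ± 0.31 (SE, edgeR adjusted p = 8.7e-05). UGT2B28 rose 6.30-fold, at 2.66 ± 0.41 (SE, edgeR adjusted p = 5.9e-05). UGT2B11 went from 0.493, 1.20 and 1.88 CPM to 0.917, 1.53 and 2.64 CPM. It did not pass, at a log2 fold change of 0.51 ± 0.42 (SE, edgeR adjusted p = 0.37), nor with the replicate block (0.11). Within replicate numbers 1, 2 and 3 it was 1.86, 1.28 and 1.4 times higher with DHT. The sum of UGT2B15 and UGT2B17 went from 12.6 ± 4.23 to 2.74 ± 1.43 CPM. Their ratio, 0.614, 0.742 and 1.37 in vehicle and 0.314, 0.794 and 0.542 with DHT, overlapped here.

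Among the members below the filter, UGT2B7 had 2, 9 and 6 counts in paxillin vehicle and 0, 2 and 2 with DHT, lower in every replicate number as under nonspecific siRNA. With no filter its log2 fold change was -1.91 (edgeR adjusted p = 0.18). UGT2B4 had 2, 4 and 2 counts in vehicle and 3, 6 and 15 with DHT, a log2 fold change of 1.63 with no filter (edgeR adjusted p = 0.14). UGT2B10 had 3, 3 and 10 counts and then 2, 2 and 5, a depth-scaled ratio of 0.589 whose exact 95% counting interval, 0.229 to 1.41, spans 1.

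**Figure D3:**
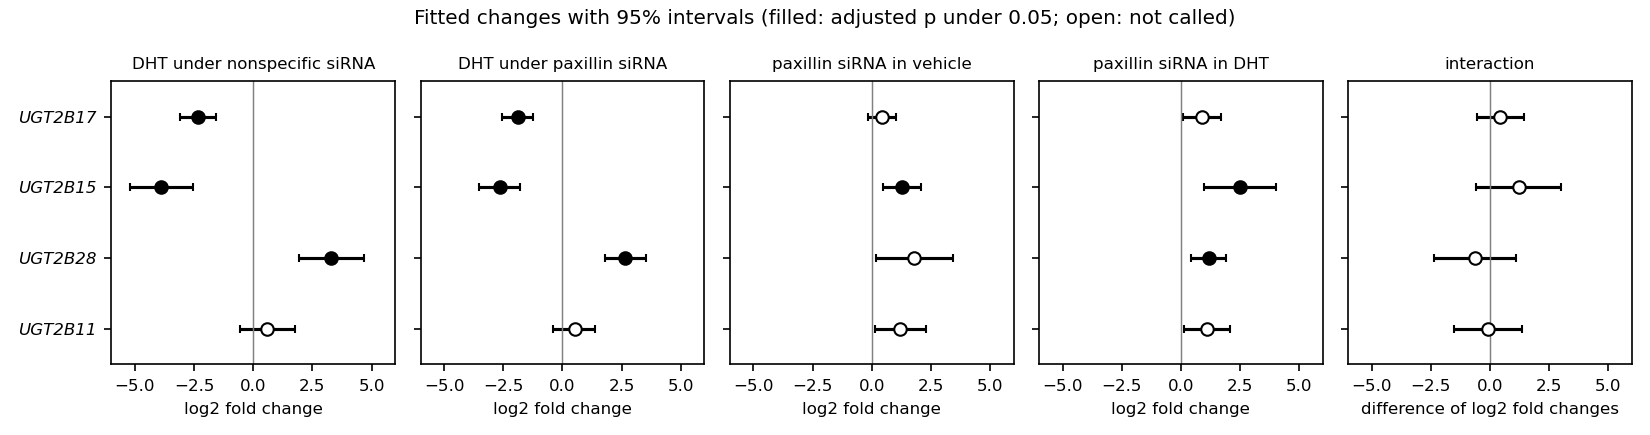
Log2 fold changes with 95% intervals of the 4 tested UGT2B genes in 4 comparisons, and the difference between the DHT responses (interaction); filled points have an edgeR adjusted p under 0.05. UGT2B17 and UGT2B15 lie left of 0 and UGT2B28 right of 0 for DHT under each siRNA, all 4 genes lie right of 0 for paxillin siRNA with 3 filled points in all, and every interaction interval spans 0.

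The composition of the family changed with DHT. UGT2B15 made up 30.6 ± 3.87% of the family's summed CPM per kb in nonspecific vehicle and 6.13 ± 1.16% with DHT, and UGT2B17 59.8 ± 4.46% and 35.6 ± 9.64% (mean ± SD, n = 3). UGT2B28 went from 0.92 ± 0.754% to 23.1 ± 10.1% and UGT2B11 from 4.93 ± 1.85% to 28.7 ± 4.5%. Under paxillin siRNA UGT2B15 went from 40.7 ± 8.5% to 15.6 ± 5.08%, UGT2B17 from 47.7 ± 9.95% to 29.4 ± 3.74%, UGT2B28 from 1.52 ± 0.685% to 23.6 ± 6.98% and UGT2B11 from 6.95 ± 2.14% to 24.8 ± 1.86%. The total also changed: all 7 genes together went from 7.8 ± 2.44 to 2.54 ± 1.01 CPM under nonspecific siRNA and from 14.4 ± 5.11 to 6.04 ± 2.85 CPM under paxillin siRNA.

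With DHT the levels of the leading genes lay closer together. In nonspecific DHT, UGT2B17 at 0.447 ± 0.233, UGT2B11 at 0.33 ± 0.0838 and UGT2B28 at 0.268 ± 0.146 CPM per kb overlapped, and UGT2B15 at 0.0766 ± 0.0442 lay below all 3. In paxillin DHT the ranges of UGT2B17 (0.847 ± 0.434), UGT2B11 (0.726 ± 0.373), UGT2B28 (0.616 ± 0.108) and UGT2B15 (0.471 ± 0.28 CPM per kb) overlapped.

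**Figure D4:**
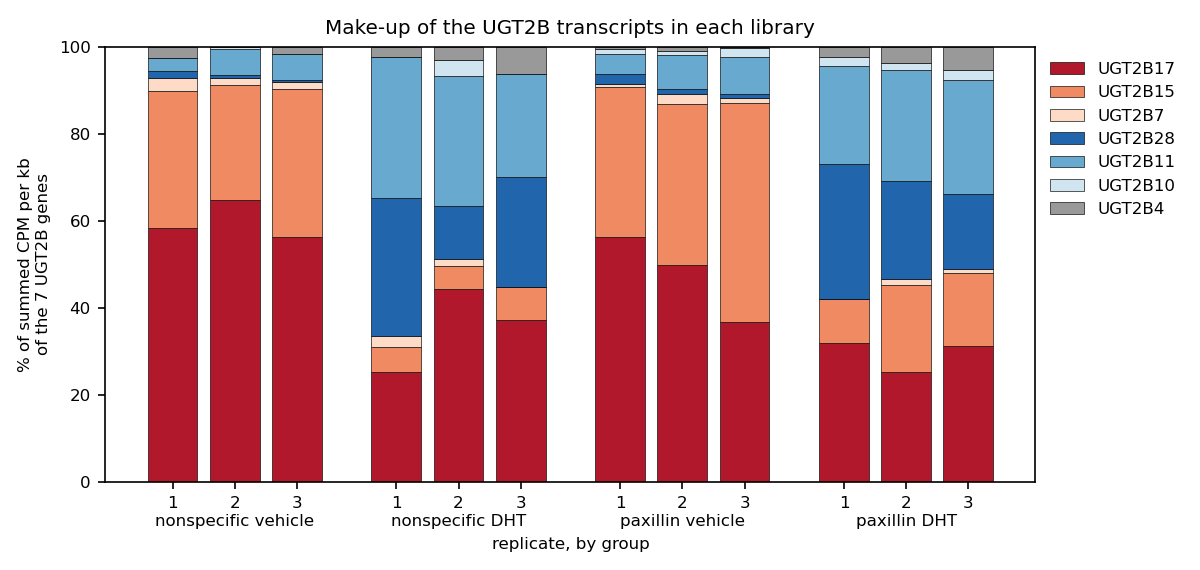
Percent of the summed CPM per kb of the 7 UGT2B genes that each gene makes up, stacked from 0 to 100 in each of the 12 libraries. UGT2B17 and UGT2B15 fill most of each vehicle bar, and UGT2B28 and UGT2B11 take up a mean of 23.1 to 28.7% each in the DHT bars of the 2 siRNAs.

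The next comparison asked how the family differs between paxillin and nonspecific siRNA. PXN was measured as RNA only, and paxillin protein was not measured. In vehicle, UGT2B15 was the only tested member called, and it was higher with paxillin siRNA, beside 20.5% of all genes called and 10.7% called up. Against the nonspecific levels of 1.63, 2.13 and 3.38 CPM, its paxillin siRNA libraries held 3.35, 5.03 and 9.92 CPM, and the highest nonspecific library lay just above the lowest paxillin library. The difference was 2.46-fold, a log2 fold change of 1.30 ± 0.38 (SE, edgeR adjusted p = 0.022). Within replicate numbers 1, 2 and 3 it was 2.06, 2.36 and 2.93 times higher. The call was lost with DESeq2 (adjusted p = 0.095) and limma-voom (0.051), without nonspecific vehicle replicate 1 (edgeR adjusted p = 0.068) or 2 (0.1), and without paxillin vehicle replicate 3, when the log2 fold change was 0.76 (0.19).

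The other 3 tested members were also higher in each numbered pair, but did not pass in the fit without pairing. UGT2B11 stood at 0.493, 1.20 and 1.88 CPM with paxillin siRNA against 0.163, 0.542 and 0.676 CPM, a log2 fold change of 1.20 ± 0.51 (SE, edgeR adjusted p = 0.11). UGT2B17 had 0.44 ± 0.28 (SE, edgeR adjusted p = 0.29) and UGT2B28, with 6, 4 and 5 counts against 1, 1 and 1, had 1.81 ± 0.77 (SE, edgeR adjusted p = 0.11). Only UGT2B28 had groups that did not overlap, beside 35.9% of all tested genes. With the replicate number as a block, UGT2B11 was called at a log2 fold change of 1.30 (edgeR adjusted p = 0.0048) and UGT2B17 at 0.51 (0.04), so that 3 of 4 tested members were called up beside 14.8% of all genes, and UGT2B28 was not (0.086). UGT2B11 was also called with no filter (0.0083) and without paxillin vehicle replicate 1 (0.022).

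Of the members below the filter, UGT2B10 had 1 count over the 3 nonspecific vehicle libraries and 3, 3 and 10 in paxillin vehicle. The depth-scaled ratio was 12.1 with an exact 95% counting interval of 1.88 to 508, and the fit with no filter gave a log2 fold change of 3.27 (edgeR adjusted p = 0.083), which did not pass. UGT2B7 had 11 and 17 counts over the 2 groups and UGT2B4 had 7 and 8.

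In DHT, UGT2B15 and UGT2B28 were called higher with paxillin siRNA, 2 of the 4 tested members, beside 13.3% of all genes called and 6.34% called up. UGT2B15 stood at 0.36, 1.06 and 1.51 CPM against 0.0856, 0.131 and 0.262 CPM, without overlap, at a log2 fold change of 2.51 ± 0.73 (SE, edgeR adjusted p = 0.029). UGT2B28 stood at 0.983, 1.06 and 1.36 CPM against 0.428, 0.261 and 0.787 CPM, also without overlap (32% of all tested genes), at 1.17 ± 0.36 (SE, edgeR adjusted p = 0.039). The groups of UGT2B17 and UGT2B11 overlapped, at log2 fold changes of 0.89 ± 0.39 (SE, edgeR adjusted p = 0.14) and 1.11 ± 0.45 (SE, edgeR adjusted p = 0.12).

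With the replicate block all 4 tested members were called up in DHT, beside 10.4% of all genes: UGT2B17 at a log2 fold change of 0.91 (edgeR adjusted p = 0.018) and UGT2B11 at 1.10 (0.0077) joined UGT2B15 and UGT2B28. These 4 were also called with no filter, beside 3.84% of 34208 genes called up, and UGT2B11 without paxillin DHT replicate 1 (edgeR adjusted p = 0.04). The 34208 include genes with too few counts to pass the filter, which the 4 members pass, so that share is a low yardstick. The 2 calls of the fit without the block were fragile. UGT2B15 was lost with limma-voom (adjusted p = 0.16) and without nonspecific DHT replicate 1 (edgeR adjusted p = 0.1) or 2 (0.096), or paxillin DHT replicate 2 (0.076) or 3 (0.15). UGT2B28 was lost with DESeq2 (adjusted p = 0.087), in a fit of the compared groups only (edgeR adjusted p = 0.06), and without nonspecific DHT replicate 1 (0.12) or 2 (0.16), paxillin DHT replicate 2 (0.076) or 3 (0.14), or paxillin vehicle replicate 2 (0.052).

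In all 4 groups, UGT2B15, UGT2B17 and UGT2B11 were lowest in the library numbered 1 and highest in the library numbered 3. The 2 siRNA comparisons and the 2 DHT comparisons draw on the same 4 groups, so they are not independent of one another.

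The interaction asked whether the DHT response differs between siRNAs. None of the 4 tested members was called by edgeR, DESeq2 or limma-voom, and 0.0496% of all genes were called by edgeR. In the main edgeR fit 0 of 4 had an unadjusted p under 0.05. That number was 1 with the replicate block, with no filter, and without paxillin vehicle replicate 3 or paxillin DHT replicate 1. The DHT response of UGT2B15 was 1.21 ± 0.86 (SE) log2 units weaker under paxillin siRNA, with a 95% interval of -0.60 to 3.02, and that of UGT2B17 0.44 ± 0.48 (SE), with an interval of -0.57 to 1.45. UGT2B28 gave -0.64 (95% interval -2.37 to 1.09) and UGT2B11 -0.09 (-1.53 to 1.34). These intervals do not show that the responses were alike.

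Enzymes that supply or handle glucuronic acid were on a fixed list of 12, and all 12 were tested. For DHT under nonspecific siRNA 3 rose, 2 fell and 7 did not pass, beside 40.5% of all genes called. The median log2 fold change was 0.06, beside -0.01 over all genes. Under paxillin siRNA 4 rose and 4 fell, beside 38% of all genes called, with a median of 0.03. UGDH, which oxidises UDP-glucose to the UDP-glucuronic acid that UGT2B enzymes use, rose from 47 ± 1.5 to 74.4 ± 5.34 CPM (mean ± SD, n = 3) under nonspecific siRNA, a log2 fold change of 0.66 ± 0.08 (SE, edgeR adjusted p = 5.2e-06), and by 0.83 ± 0.08 under paxillin siRNA. The glucose kinases HK1 and HK2 rose by 0.67 and 0.97 log2 units under nonspecific siRNA and by 0.52 and 0.87 under paxillin siRNA. UGP2, which makes UDP-glucose, fell by 0.25 log2 units under nonspecific siRNA, with overlapping groups, a call lost under 4 of 20 alternatives. UGP2 was at -0.05 under paxillin siRNA (edgeR adjusted p = 0.66). GUSB, the lysosomal enzyme that splits glucuronides, fell by 0.30 and 0.29 log2 units. SLC35D1, which carries UDP-glucuronic acid into the endoplasmic reticulum, was at -0.68 under nonspecific siRNA (edgeR adjusted p = 0.22). Under paxillin siRNA SLC35D1 fell by 1.17, from 71 to 30 counts over the group, a call lost under 5 of 20 alternatives. SLC35D2 fell by 0.24, NUDT14 fell by 0.23 and PGM1 rose by 0.27 log2 units under paxillin siRNA only just past the threshold (edgeR adjusted p = 0.049, 0.047 and 0.045). These calls were lost under 12, 11 and 11 of 20 alternatives. Under nonspecific siRNA SLC35D2 was at -0.22 (edgeR adjusted p = 0.059), NUDT14 at -0.21 (0.071) and PGM1 at 0.07 (0.62).

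Under paxillin siRNA in vehicle, 2 of these 12 genes rose and 3 fell, beside 20.5% of all genes called. In DHT 1 rose and 1 fell, beside 13.3% of all genes. In vehicle UGDH fell by 0.26 log2 units, UGP2 fell by 0.43 and SLC35D2 fell by 0.54, and HK1 rose by 0.22. The calls of UGDH and HK1 were lost under 6 and 3 of 20 alternatives, and those of UGP2 and SLC35D2 under none. SLC35D2 also fell by 0.56 in DHT. NUDT14, a UDP-glucose hydrolase, went from 26.1 ± 1.87 to 33.5 ± 0.873 CPM in vehicle and from 22.6 ± 1.64 to 28.7 ± 3.29 CPM in DHT, and was called up in each. Its calls were lost under 1 and 4 of 20 alternatives.

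Of 15 other UDP-glycosyltransferase genes only UGT1A3 and UGT8 were tested. UGT8, which adds galactose to ceramide and is not a glucuronosyltransferase, fell with DHT by 0.75 log2 units under nonspecific siRNA and by 0.46 under paxillin siRNA, and fell with paxillin siRNA in vehicle by 0.48. UGT1A3 conjugates oestrogens and bile acids and shares its later exons with the other UGT1A genes. It rose with DHT from 8 to 38 counts over the nonspecific groups, a log2 fold change of 2.05 ± 0.62 (SE, edgeR adjusted p = 0.013). It passed the filter on low counts only through the nonspecific DHT libraries, at 11 to 15 counts. Passing is therefore not independent of its DHT difference. Under paxillin siRNA it had 8 and 26 counts and 1.71 ± 0.65 (SE, edgeR adjusted p = 0.045), a call lost under 14 of 20 alternatives.

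Transporters of conjugates formed a list of 13, of which 8 were tested. The list holds exporters and also SLCO carriers, which are known for uptake. DHT raised 4, an SLCO carrier among them, and lowered 1 under nonspecific siRNA, beside 40.5% of all genes called. It raised 3 and lowered 2 under paxillin siRNA, beside 38%. The median log2 fold changes were 0.24 and 0.00. ABCC4, an exporter of steroid conjugates, rose from 153 ± 8.84 to 918 ± 20 CPM (mean ± SD, n = 3), 5.99-fold, and ABCC1 from 68.7 ± 7.51 to 229 ± 25 CPM, 3.35-fold. ABCC11 rose 2.02-fold and ABCC5 fell 1.65-fold. Under paxillin siRNA ABCC4 rose 4.89-fold and ABCC1 2.45-fold.

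**Figure D5:**
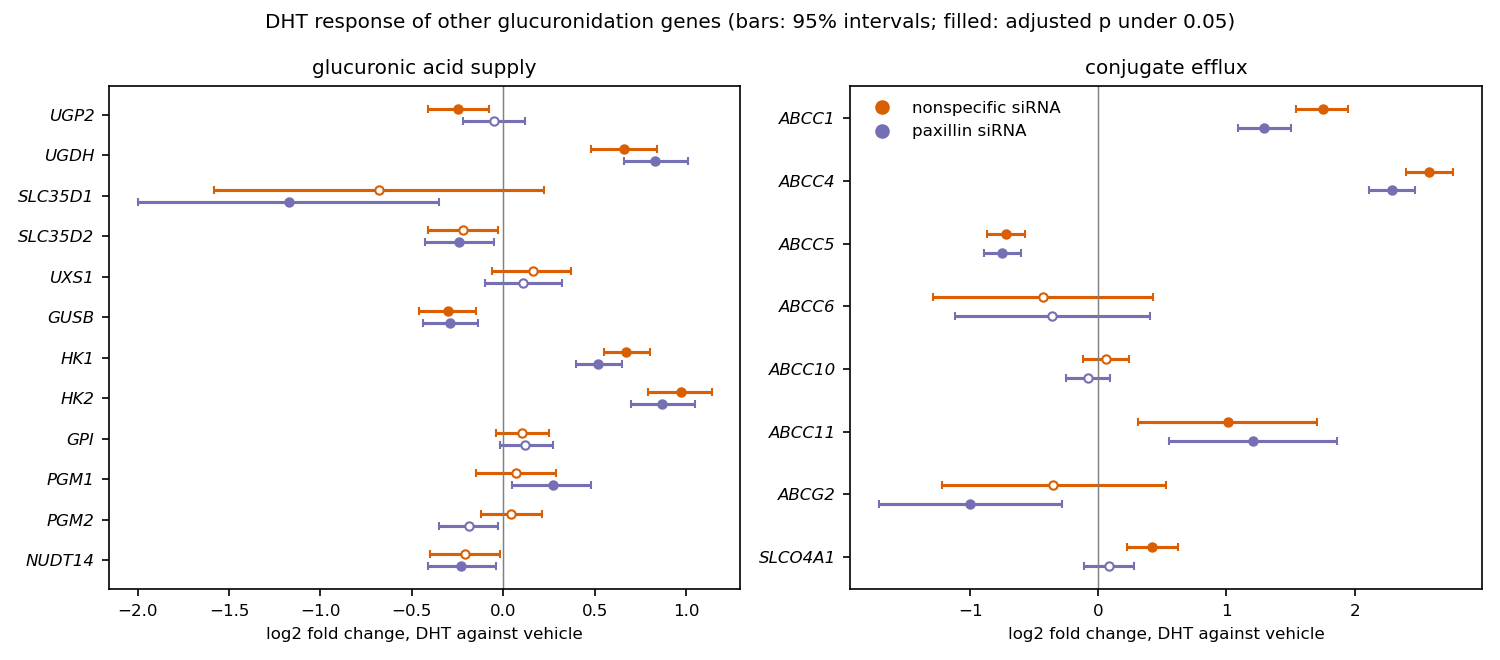
Log2 fold changes of DHT against vehicle, with 95% intervals, for the 12 genes of glucuronic acid supply (left) and the 8 tested transporters (right), under nonspecific and paxillin siRNA; filled points have an edgeR adjusted p under 0.05. UGDH, HK1, HK2, ABCC1, ABCC4 and ABCC11 lie right of 0 and GUSB and ABCC5 left of 0 under both siRNAs.

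Among genes of the competing route of sulfation, 5 of 8 were tested. DHT raised STS, which removes sulfate from steroids, by 0.50 log2 units under nonspecific siRNA and 0.54 under paxillin siRNA. It lowered PAPSS1 and PAPSS2, which make the sulfate donor. PAPSS2 fell by 2.30 log2 units, from 28 to 6 counts over the group, and by 2.01 under paxillin siRNA. PAPSS2 passed the filter on low counts through its vehicle libraries, so passing is not independent of its DHT difference. Its call under nonspecific siRNA was lost under 4 of 20 alternatives. PAPSS1 fell by 0.45 and 0.18, and its call under paxillin siRNA was lost under 5 of 20. SULT1A1 was at -0.18 under nonspecific siRNA (edgeR adjusted p = 0.14) and was called down under paxillin siRNA. So 2 fell under nonspecific and 3 under paxillin siRNA, beside 18.9% and 17.9% of all genes called down.

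Of 17 genes for androgen reduction and oxidation 8 were tested. With nonspecific siRNA DHT raised 4 and lowered 1, beside 40.5% of all genes called. RDH16, which oxidises 3-alpha-hydroxysteroids, rose by 1.43 log2 units and HSD17B11, which oxidises androstanediol, by 0.90, while HSD17B4, a peroxisomal enzyme, rose by 0.52. SRD5A3, a reductase of the steroid 5-alpha-reductase family, fell by 1.05. Under paxillin siRNA 4 rose and 2 fell, beside 38% of all genes called. There RDH16 was at 1.51, HSD17B11 at 0.92, HSD17B4 at 0.52 and SRD5A3 at -0.81. Against nonspecific siRNA, paxillin siRNA raised 2 of the 8 and lowered 2 in vehicle, beside 20.5% of all genes called. In DHT it raised 2 and lowered 1, beside 13.3%. RDH16 was higher with paxillin siRNA, by 1.23 log2 units in vehicle and 1.31 in DHT, and HSD17B11 was lower, by 0.59 and 0.56.

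Of 19 transcription factors listed as regulators of UGT2B genes 11 were tested. DHT raised 2 and lowered 3 under nonspecific siRNA, beside 40.5% of all genes called. It raised 3 and lowered 3 under paxillin siRNA, beside 38%. PPARA, a fatty acid receptor, rose by 0.39 log2 units under nonspecific siRNA and by 0.51 under paxillin siRNA. NFE2L2, the oxidative stress factor NRF2, rose by 0.21 and 0.35. POU2F1 fell by 0.27 under nonspecific siRNA and was at -0.22 under paxillin siRNA (edgeR adjusted p = 0.089). Paxillin siRNA raised none of the 11 and lowered 3 in vehicle and 2 in DHT, beside 20.5% and 13.3% of all genes called.

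The UGT2B family is best known from liver, so hepatocyte markers were set beside it. Only 3 of 12 were tested, and ALB had 10, 5, 5 and 0 counts over the 4 groups in the order given in the opening. Their summed level was 5.62 to 6.5 CPM in nonspecific vehicle, 4.15 to 6.14 in nonspecific DHT, 8.35 to 9.85 in paxillin vehicle and 6.68 to 8.46 in paxillin DHT. Every paxillin siRNA library thus lay above the nonspecific libraries of the same treatment, and the part of this sum in the UGT2B differences was not tested. CYP2E1, a drug-metabolising cytochrome, was the 1 hepatocyte marker called. The shares of all genes called were 40.5% and 38% for DHT and 20.5% and 13.3% for paxillin siRNA. CYP2E1 fell with DHT by 0.74 and 0.59 log2 units and rose with paxillin siRNA by 0.92 and 1.07. Basal and stromal markers, 4 of 10 tested, summed to 50 to 59.3 CPM in nonspecific vehicle, 46.6 to 53 in nonspecific DHT, 56.4 to 64.2 in paxillin vehicle and 51.2 to 59.9 in paxillin DHT, and single markers moved with the siRNA in opposite directions. VIM, the filament protein vimentin, rose with paxillin siRNA from 9.92 ± 0.944 to 23.1 ± 4.6 CPM in vehicle (mean ± SD, n = 3), 2.30-fold (edgeR adjusted p = 5.3e-05), and from 11.5 ± 1.65 to 26 ± 4.14 CPM in DHT, 2.26-fold (9.1e-05). ACTA2, smooth muscle actin, rose 1.79-fold in vehicle (edgeR adjusted p = 0.014), a call lost without nonspecific vehicle replicate 2 (0.071) or paxillin vehicle replicate 3 (0.072), and in DHT its log2 fold change was -0.25 (0.54). COL1A1, a collagen chain, fell by 0.27 log2 units in vehicle (edgeR adjusted p = 0.036) and by 0.44 in DHT (0.0024). The vehicle call of COL1A1 was lost without nonspecific vehicle replicate 1, when the log2 fold change was -0.16 (edgeR adjusted p = 0.16), in a fit of the compared groups only (0.064), and without paxillin vehicle replicate 1 (0.064), 2 (0.055) or 3 (0.13). The part of these markers in the UGT2B differences was not tested. Immune and endothelial markers, 1 of 8 tested, summed to 10 to 14.3 CPM in nonspecific vehicle, 9.67 to 13.1 in nonspecific DHT, 8.29 to 13.3 in paxillin vehicle and 11.4 to 15.1 in paxillin DHT. Nearly all of this was VWF, an endothelial clotting factor, at group means of 9.94 to 12.6 CPM and not called in any comparison. The other 7 had 0 to 6 counts over any group, and CD3E, a T cell marker, had 0 in every library. In bulk RNA, fewer cells with a transcript and less transcript per cell cannot be told apart.

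Genes with the most similar pattern were ranked by Pearson correlation of log2 CPM over the 12 libraries among 12103 genes with a mean of at least 1 CPM. All points share the 4 groups, so a high correlation is common and is given only as a description. For UGT2B15 these were SLFN5 (r = 0.996), PLEKHS1 (0.99), CGNL1 (0.988), TMSB4X (0.987) and SLIT1 (0.981). PLEKHS1 had group means of 85.8 and 22.2 CPM in nonspecific vehicle and DHT and 155 and 51.2 CPM with paxillin siRNA. For UGT2B17 they were ZNF365 (0.982), PRSS23 (0.975), RIT2 (0.975), SOBP (0.974) and MAPRE2 (0.972). For UGT2B28 they included SEC22C (0.973), LIMCH1 (0.969), SAR1B (0.969) and SERP1 (0.968). UGT2B15 and UGT2B17 correlated with each other at 0.947, UGT2B28 and UGT2B11 at 0.577, and UGT2B15 and UGT2B11 at 0.161.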

How the data were processed

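The authors deposited a table of raw counts per gene symbol for 12 libraries; the values are whole numbers with unequal totals, from 11944906 to 32040465. Per the submitters' processing notes, the tools were Trimmomatic 0.36, STAR 2.5.2b and featureCounts of Subread 1.5.0p3, on GRCh38. For the annotation release, the strand setting and the handling of reads that fit several genes, nothing is given in the sources used here. Symbols were matched to GENCODE 29 for 7 of 7 members and to RefSeq promoters for 4.

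Counts were tested in R 4.3.3 with edgeR 4.0.16: filterByExpr (minimum count 10, minimum total 15), TMM scaling, and a quasi-likelihood fit of the 4 group means over 12 libraries, with Benjamini-Hochberg adjusted p under 0.05 over 16115 genes. Standard errors come from the F statistic. Intervals of count ratios are exact 95% intervals for counting error only, since reads carried no molecular identifiers and are not independent molecules. Sums, shares per kb and correlations (prior count 2) carry no test. The scripts were tested on simulated counts.

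Replicate numbers recur in all groups. Over 10699 genes, deviations from the group means correlated at 0.14 to 0.48 in the 18 pairs with the same number (median 0.27) and at -0.43 to 0.21 in the 36 others (median -0.11), so the numbers were taken to pair the libraries, from the data and not from the labels. Deviations within a group cancel out, so the negative median largely follows from the positive one and is not separate evidence of pairing. Replicates of a group differed beyond sampling noise, so all 12 libraries were counted.

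The alternatives tried were upper-quartile or RLE scaling, unscaled totals for the sums, no filter, the replicate block, the compared groups only, DESeq2 1.42.0, limma-voom (limma 3.58.1), adjusted p under 0.01 and leaving out each library. The members, gene lists and naming rule were chosen with earlier results of these data known. The rule named all 7 members, PXN, the androgen check genes, up to 3 rising and 3 falling called genes per list, every called gene of the glucuronic acid and other UGT lists, and 5 genes by correlation. A few other genes that the rule names are not reported here. SULT1A1, ALB, VIM, ACTA2, COL1A1, VWF and CD3E fall outside it and were chosen after their values were seen.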

Additional observations from a re-analysis of the deposited data

How the results depend on the processing

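The DHT calls of UGT2B15, UGT2B17 and UGT2B28 kept their direction and stayed past the threshold under all 20 alternatives with each siRNA. Their log2 fold changes ran from -4.46 to -3.52, -2.69 to -1.98 and 2.70 to 3.59 under nonspecific siRNA, and from -3.15 to -2.12, -2.40 to -1.65 and 2.50 to 2.75 under paxillin siRNA. The paxillin siRNA calls of UGT2B15 were lost under 6 of 20 alternatives in vehicle (adjusted p 1.4e-08 to 0.19) and 6 of 20 in DHT (4.1e-08 to 0.16), and that of UGT2B28 in DHT under 8 of 20 (0.014 to 0.16). The cause was not tested. Few counts limit UGT2B28 in vehicle and UGT2B4, UGT2B7 and UGT2B10 throughout. The sums over members did not reverse or move beyond the replicate spread.

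The replicate block raised the number of genes called for paxillin siRNA in DHT from 2149 to 3486 and for the interaction from 8 to 97. With the block UGT2B11 and UGT2B17 were called for paxillin siRNA in each treatment, and no other call of a UGT2B gene changed.

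Genes called for paxillin siRNA in vehicle, 3303, numbered 1651 at an adjusted p under 0.01 and 1847 to 3490 without 1 library, with 1952 without nonspecific vehicle replicate 2 and 1847 without paxillin vehicle replicate 3. Those for paxillin siRNA in DHT numbered 954 at 0.01 and 1165 to 2394 without 1 library, with 1254 without nonspecific DHT replicate 2, and 1369 and 1165 without paxillin DHT replicate 2 and 3. Interaction calls numbered 142 with no filter, 54 with DESeq2, 0 with limma-voom and 0 at 0.01, and 0 to 22 without 1 library. The interaction of UGT2B11, -0.09, ran from -0.57 to 0.40 without 1 library and changed sign without nonspecific vehicle replicate 1 (0.16), nonspecific DHT replicate 3 (0.07), paxillin vehicle replicate 3 (0.40) and paxillin DHT replicate 1 (0.22), and that of UGT2B17, 0.44, ran from -0.06 to 0.80 and changed sign without paxillin DHT replicate 3 (-0.06). Of the calls of other named genes, 144 of 1920 values under an alternative no longer passed and none changed sign.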
